A study of Mus musculus with 6 samples.

Results

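Broken domains of H3K79me2 were described in mouse myeloid leukaemia cells: chains of at least 4 autosomal peaks, each at most 3000 bp from the next. The rule joined neighbouring peaks of chromosomes 1 to 19 wherever the next start minus the previous end minus 1 was at most 3000 bp. It left 405 chains with 1955 member peaks, out of 18418 autosomal peaks and 18992 peaks in all. Member peaks made up 10.6% of the autosomal peaks and 9.04% of the autosomal bases that peaks covered, and chains were 3.13% of the 12960 autosomal regions after joining.

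H3K79me2 is the dimethyl mark that DOT1L, its methyltransferase, places on lysine 79 in the globular core of histone H3. DOT1L works together with the transcription elongation machinery, and the mark usually lies over the first part of transcribed genes and fades along the gene body. It is known for marking the active targets of MLL-rearranged leukaemias in blood cells. A peak caller reports a continuous marked stretch as 1 peak, so a chain is a stretch in which the signal dropped below the call several times over short distances.

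The chromatin came from 3 H3K79me2 libraries, set against 3 input libraries of chromatin without immunoprecipitation. All were from bone marrow blasts sorted out of moribund C57BL/6 mice that had received CMP cells transformed with MN1, cultured briefly with IL-3, IL-6 and SCF. Every group carried the conditional Dot1l f/f allele in its active, undeleted state, so there was no sample without DOT1L. The labels leave unsaid if each library number is a separate animal, and the deposited list combines the libraries. No value per library exists in it, so no replicate spread and no test between samples can be given. Genes were not assigned to chains, and the blasts were not checked against cell type markers, because the gene table used here is of another genome build than the peaks (mm9).

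Peaks are described by the authors' deposited fold enrichment over the control background, pileup (the coverage signal of the combined H3K79me2 reads, not whole numbers and possibly scaled), width and −log10 q. Chains were chosen by peak positions from that same call, so all these values are descriptions and none carries a test. Intervals are 95% intervals, from the ranks for medians and exact binomial for shares. They cover the spread between peaks or chains and counting error only. The pileup of the member peaks ran from 19 to 172.3, with a median of 23.4.

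Chains were mostly made of weak peaks. Member peaks had a median fold of 2.01 (1.998 to 2.03), against 2.11 in joined regions of 2 or 3 peaks and 2.99 in the 9398 lone peaks, those with no neighbour within 3000 bp. A fold of at least 4, called strong here, was reached by 208 of the 1955 member peaks, or 10.6% (9.31% to 12.1%), where 29.5% of all autosomal peaks reached it. A fold under 2 was found in 937 member peaks, or 47.9%, against 34.8% of all autosomal peaks. Chains thus held 3.83% of the strong autosomal peaks and 14.6% of those with a fold under 2.

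Member peaks also sat closer to the calling limit than other peaks. A −log10 q under 2 was found in 40.6% of member peaks, against 30.3% of all autosomal peaks. A −log10 q of at least 10 was found in 14.3% of member peaks, against 36.6% of all autosomal peaks. Their median width was 3.64 kb, against 3.83 kb in joined regions of 2 or 3 peaks and 5.21 kb in lone peaks. Short peaks under 1 kb made up 16.6% of the member peaks and 15.3% of the other autosomal peaks, and 72 member peaks were at least 50 kb wide. The control background under a peak, taken as (pileup + 1) / fold − 1, had a median of 10.998 in member peaks and 11.3 in the other autosomal peaks. That formula assumes how the caller computed the fold, and the part of the background in the result was not tested.

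Chains covered long stretches. The median span was 39.9 kb (35.9 to 44.4), with quartiles of 25.4 and 70.3 kb, and spans ran from 8.84 to 335.5 kb. There were 54 chains of at least 100 kb and 60 under 20 kb. Peaks covered a median of 84.2% (82.6% to 85.6%) of the span, from 33.9% to 98.2%. In sum, the 405 chains spanned 22.4 Mb, of which peaks covered 19.7 Mb. The gaps of a chain added up to a median of 6.12 kb, so the covered share followed mainly from the span. The widest peak alone held a median of 54.9% of the covered bases of its chain.

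Most chains had few peaks. There were 227 chains of 4 peaks, 99 of 5, 39 of 6, 22 of 7, 7 of 8 and 8 of 9, and 1 chain each of 10, 12 and 14 peaks. The 1550 gaps inside chains had a median of 1637 bp and ran from 1169 to 2999 bp, and 39.5% of them were under 1500 bp. No shorter gap than 1169 bp occurs anywhere on the autosomes. Whether the caller merged peaks across shorter breaks is not known here, so the gaps count only the breaks that the list kept. Gaps beside the strongest peak of a chain that held a strong peak had a median of 1624 bp, and the other gaps of those chains 1620 bp. In chains without a strong peak the median gap was 1642 bp. The medians of the 3 kinds of gap lay within 22 bp of each other.

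The limits of the rule fell within a continuous range of values. The largest gap that was joined measured 2999 bp and the smallest that was not 3002 bp, with 428 gaps inside chains between 2000 and 3000 bp and 1066 autosomal gaps between 3000 and 4000 bp. Chains of exactly 4 peaks had a median span of 34.2 kb, a median strongest fold of 3.22 and a strong peak in 44.1%. The 751 joined regions of 3 peaks, just outside the rule, had a median span of 25.2 kb, a median strongest fold of 3.44 and a strong peak in 43.9%. The share with a strong peak thus differed by less than its interval across the limit.

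Chains fell into those with a strong peak and those without. A strong peak was present in 167 of the 405 chains, or 41.2% (36.4% to 46.2%). Of these, 132 chains had 1 strong peak, 29 had 2 and 6 had 3. The other 238 chains had none. Chains with a strong peak were longer, with a median span of 60.97 kb (52.995 to 70.3), against 29.9 kb (26.6 to 33.4) in chains without one. Their peaks covered 89.8% of the span, against 78.03% in chains without one. A strong peak was present in 44.1% of chains of 4 peaks and 37.6% of chains of at least 5, and in none of the 3 chains of 10 or more.

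In chains with a strong peak, the median fold was far lower beyond the first gap and about level from there. The strongest peak is picked as the highest fold of its chain, so a drop beside it is fixed in advance. Only the size of the drop is described. The strongest peak had a median fold of 6.62 (6.16 to 6.96), a pileup of 84.5 and a width of 28.8 kb. The peaks directly beside it, 214 in all, had a median fold of 2.06 (1.98 to 2.17), a pileup of 24.1 and a width of 3.01 kb. At 2 peaks away the median fold was 2.01 (1.95 to 2.06), and at 3 or more peaks away 2.03 (1.98 to 2.1). The intervals of the 3 medians outside the strongest peak overlap. Peaks weaker than the calling limit are not in the list, and the lowest member pileup is 19, so lower levels along a chain could not have shown.

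Few of the neighbours were strong themselves. Of the 613 peaks of these chains other than the strongest, 526 had a fold under 3, or 85.8%, and 41 had a fold of at least 4, or 6.69%. The strongest peak was 2.68 times as enriched as its stronger neighbour in the median chain, with quartiles of 2.08 and 3.79. The same ratio was 3.07 in joined regions of 3 peaks with a strong peak and 2.77 in those of 2. A strong peak bordered by much weaker ones was therefore also found in shorter joined regions. Lone strong peaks had a median fold of 6.16 and a median width of 15.1 kb, against the 28.8 kb of the strongest peaks of chains. That width was not particular to chains. The strongest peaks had a median width of 27.955 kb in joined regions of 3 with a strong peak and 22.3 kb in those of 2.

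**Figure D1:**
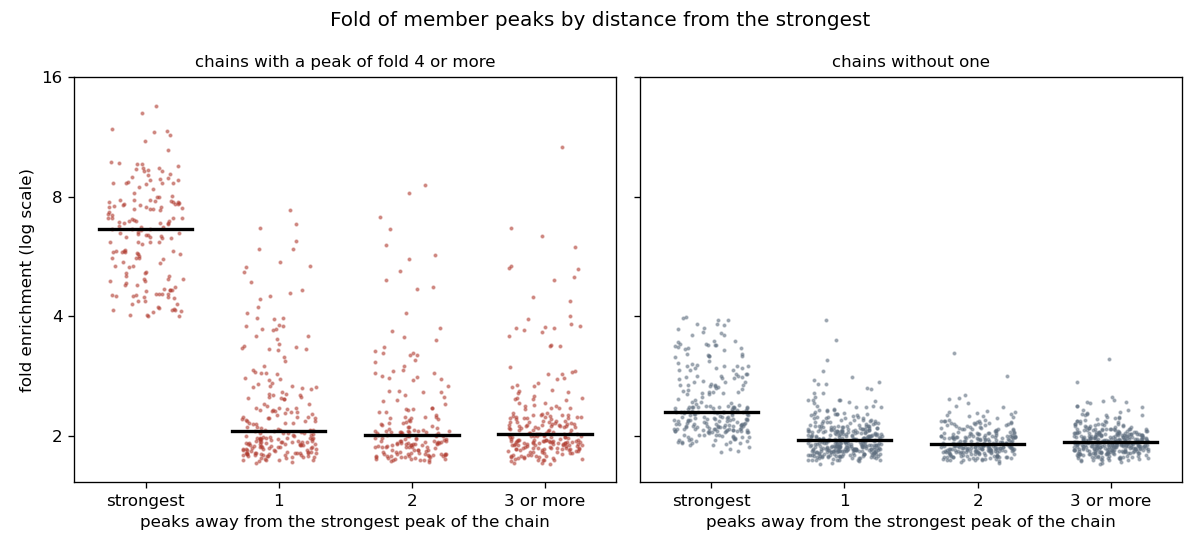
Fold enrichment (log scale) of each member peak by how many peaks it lay from the strongest of its chain, in chains with a strong peak (left, 167 chains) and without (right, 238 chains). Points are peaks and bars are medians. In the left panel the median is 6.62 at the strongest peak, 2.06 at its neighbours and 2.01 and 2.03 farther out.

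The strongest peak often stood at 1 end of the chain. In chains with a strong peak it did so in 120 of 167, or 71.9% (64.4% to 78.5%). In chains without one it did so in 129 of 238, or 54.2% (47.6% to 60.7%). Ends are 50% of the places in chains of 4 peaks and less in longer chains, so these shares have no single reference. Among the chains with exactly 1 strong peak, that peak came first on the chromosome in 43, last in 57 and inside the chain in 32. The list does not give the strand of any gene, so first and last refer only to rising position.

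Chains of 4 peaks allow the places to be set side by side, since 50% of their places are ends. In the 77 with exactly 1 strong peak, it was in the first place in 29, the second in 10, the third in 10 and the fourth in 28. In the 127 without a strong peak, the strongest was in the first place in 32, the second in 33, the third in 27 and the fourth in 35. The ends thus held 74.03% (62.8% to 83.4%) of the strongest peaks in chains of 4 with 1 strong peak and 52.8% (43.7% to 61.7%) in those with none. In these chains of 4 without a strong peak, the inner places held nearly as many as the outer ones. Longer chains, where ends are a smaller share of the places, were not set side by side in this way. Of the 178 chains of at least 5 peaks, of both kinds, 109 were strongest at an end, or 61.2% (53.7% to 68.4%). Among chains without a strong peak, the share at an end was 54.2% at all lengths and 52.8% at 4 peaks. It was thus not lower in the longer ones, although fewer of their places are ends.

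**Figure D2:**
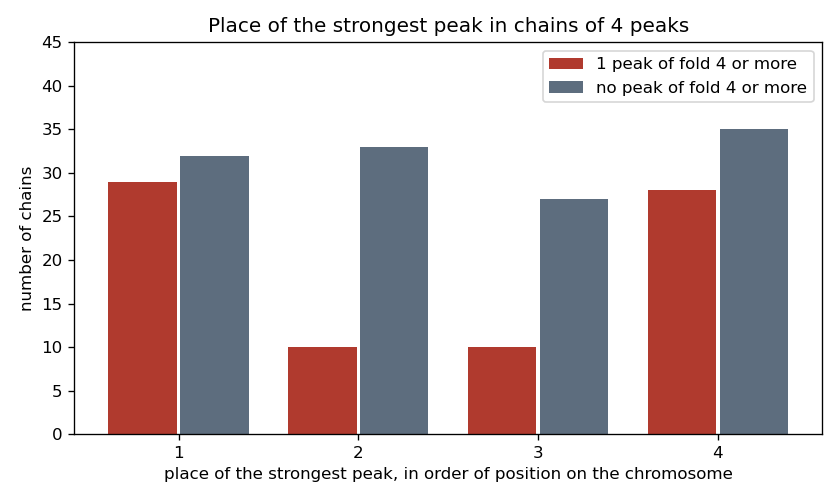
Number of chains of 4 peaks by the place of their strongest peak, in order of position on the chromosome, for 77 chains with 1 strong peak and 127 chains with none. The outer places hold 29 and 28 of the chains with 1 strong peak and the inner places 10 each, while the chains with none range between 27 and 35 at every place.

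Where 1 strong peak closed a chain, the weaker side ran on for a median of 20.7 kb (17.04 to 27.03) beyond it, with quartiles of 13.6 and 38.9 kb and a longest of 116.4 kb. The strong peak itself had a median width of 30.5 kb in these 100 chains. In 35 of them the weaker side was longer than the strong peak. Of the 35 chains with more than 1 strong peak, 17 had strong peaks next to each other and in 18 the strong peaks had only weaker ones between them. In 9 a strong peak stood at both ends.

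In chains without a strong peak, the split at a fold of 4 keeps the folds low, and the strongest peak stands above the rest by definition. In the median chain of this kind the highest fold was 1.26 times the lowest. The strongest peak had a median fold of 2.29 (2.22 to 2.35) and a width of 7.75 kb. Its neighbours had a median fold of 1.95, the peaks 2 away 1.91 and those farther out 1.93. In 26 chains every peak had a fold under 2, and in 16 every peak had a −log10 q under 2. The 26 chains under a fold of 2 had a median span of 16.4 kb, with 61.5% of it covered.

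Between these ends, chains whose strongest peak had a fold of 3 to 4 resembled those with a strong peak. These 42 chains had a median span of 66.3 kb, 89.2% of it covered, and 73.8% (57.96% to 86.1%) were strongest at an end. The 170 chains with a strongest fold of 2 to 3 had a median span of 28.5 kb, 77.1% of it covered, and 51.8% (43.99% to 59.5%) were strongest at an end. At a strongest fold of 4 to 6 the share strongest at an end was 69.7%, at 6 to 8 it was 67.7%, and at 8 or more 83.3% (67.2% to 93.6%). In span and in the place of the strongest peak, chains of 3 to 4 thus lay closer to the stronger ones than to those of 2 to 3.

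Chains had lower folds than lone peaks in the same span class, which the rule itself favours. A chain is chosen as a stretch where the signal dropped below the call several times, and a lone peak has no such break in the list. Only the size of the difference is described. The fold of a chain was taken as the mean over its peaks weighted by width, with the gaps left out. The fold of a lone peak was its deposited value, so the measures also differ. At spans of 8 to 20 kb the median was 1.97 in 60 chains, against 4.94 in 2009 lone peaks. At 20 to 40 kb it was 2.19 in 144 chains, against 6.14 in 1053 lone peaks. At 40 to 70 kb it was 3.31 in 99 chains, against 6.79 in 423 lone peaks. At 70 to 120 kb the medians were 3.94 in 66 chains and 6.51 in 156 lone peaks, and at 120 to 400 kb 3.73 in 36 chains and 7.09 in 47 lone peaks.

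Long chains usually held a strong peak all the same. A strong peak was present in 5% of chains of 8 to 20 kb, 29.2% of those of 20 to 40 kb, 51.5% of those of 40 to 70 kb, 68.2% of those of 70 to 120 kb and 72.2% of the longest. Among lone peaks the strong share ran from 66.998% at 8 to 20 kb to 87.2% at 120 to 400 kb. By the mean fold weighted by width instead of the strongest peak, 41.7% of the longest chains reached a fold of 4.

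**Figure D3:**
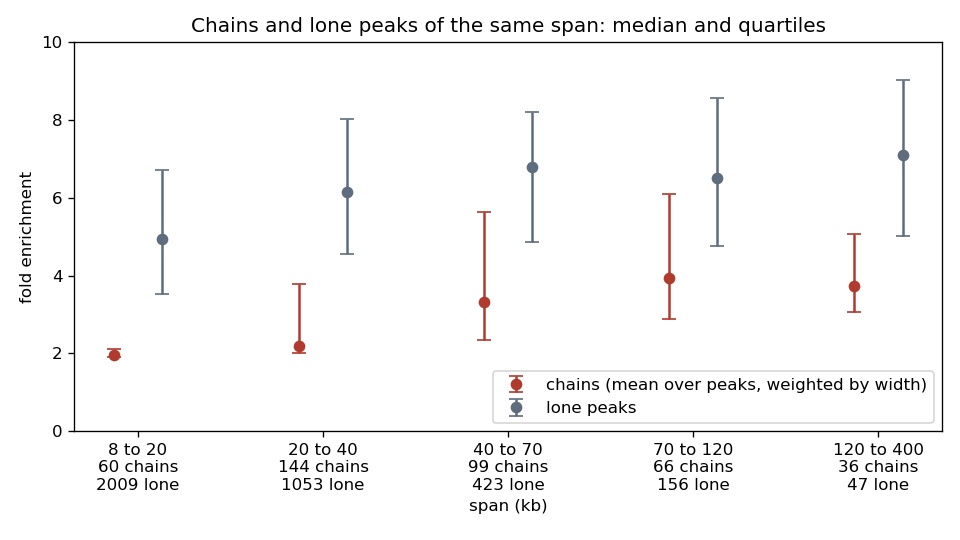
Fold enrichment of chains (mean over peaks weighted by width) and of lone peaks, by span in kb. Points are medians and bars run between the quartiles. Chains lie lower in each of the 5 span classes, at 1.97 against 4.94 in the shortest and 3.73 against 7.09 in the longest. The rule for chains, which selects stretches with breaks in the signal, favours this.

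The 5 chains with most peaks all spanned more than the median chain, and 4 of them held no strong peak. The first, of 14 peaks, lay on chromosome 15 from 52956751 to 53177354 and spanned 220.6 kb. Its first 10 peaks were each under 10 kb, with folds from 1.81 to 2.18. The last 4 were 37.7, 36.8, 18.8 and 57.2 kb wide, with folds of 2.17, 2.3, 2.18 and 2.73, so the widest and strongest peak closed the chain. The second, of 12 peaks, lay on chromosome 8 from 122846150 to 122903755. It packed its peaks into 57.6 kb, each between 1.1 and 8.22 kb wide, with folds from 1.89 to 2.82 and 69.96% of the span covered.

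The third, of 10 peaks over 213.1 kb, lay on chromosome 2 from 37929594 to 38142709. Its first 6 peaks had folds of 2.08, 2.04, 1.87, 2.06, 1.88 and 2.26, without a steady rise. The last 4 had higher folds of 2.73, 3.24, 3.11 and 3.95. The chain thus ended in a peak of 51.7 kb just under the limit for a strong one. The fourth, of 9 peaks over 161.5 kb, lay on chromosome 4 from 109347945 to 109509439. It began with a strong peak of 61.8 kb and a fold of 6.76, and its other 8 peaks had folds between 1.77 and 2.29. The fifth, also of 9 peaks, lay on chromosome 13 from 114597552 to 114704769, with folds between 1.81 and 2.43 over 107.2 kb.

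The chain of the longest span lay on chromosome 2, from 134611981 to 134947504. It opened with a peak of 217 kb and a fold of 3.33, and 6 further peaks with folds of 2.27, 1.96, 2.43, 2.08, 1.85 and 1.87 brought it to 335.5 kb. The second longest lay on chromosome 4 from 87423120 to 87679907. There 2 short peaks with folds of 1.896 and 1.79 came before strong peaks of 43.1 kb (fold 5.37) and 205.5 kb (fold 8.96). The third, on chromosome 11 from 88175097 to 88408812, had folds of 1.96, 2.55, 6.65 and 5.17. The strong peak of 178 kb in it was followed at a gap of 1404 bp by a strong peak only 1.91 kb wide.

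The fourth longest chain, on chromosome 16 from 49698180 to 49920852, held 2 strong peaks apart from each other. Its 7 peaks had folds of 3.66, 2.66, 1.76, 4.95, 2.15, 11.7 and 1.91 along 222.7 kb, and the peak of fold 11.7 was 90.4 kb wide. The fifth, on chromosome 6 from 28601981 to 28823118, had folds of 3.44, 2.32, 1.94 and 2.26 over 221.1 kb. It began with a peak of 144.3 kb, so 3 of the 5 longest chains, those on chromosomes 2, 4 and 6, had their strongest peak at an end.

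**Figure D4:**
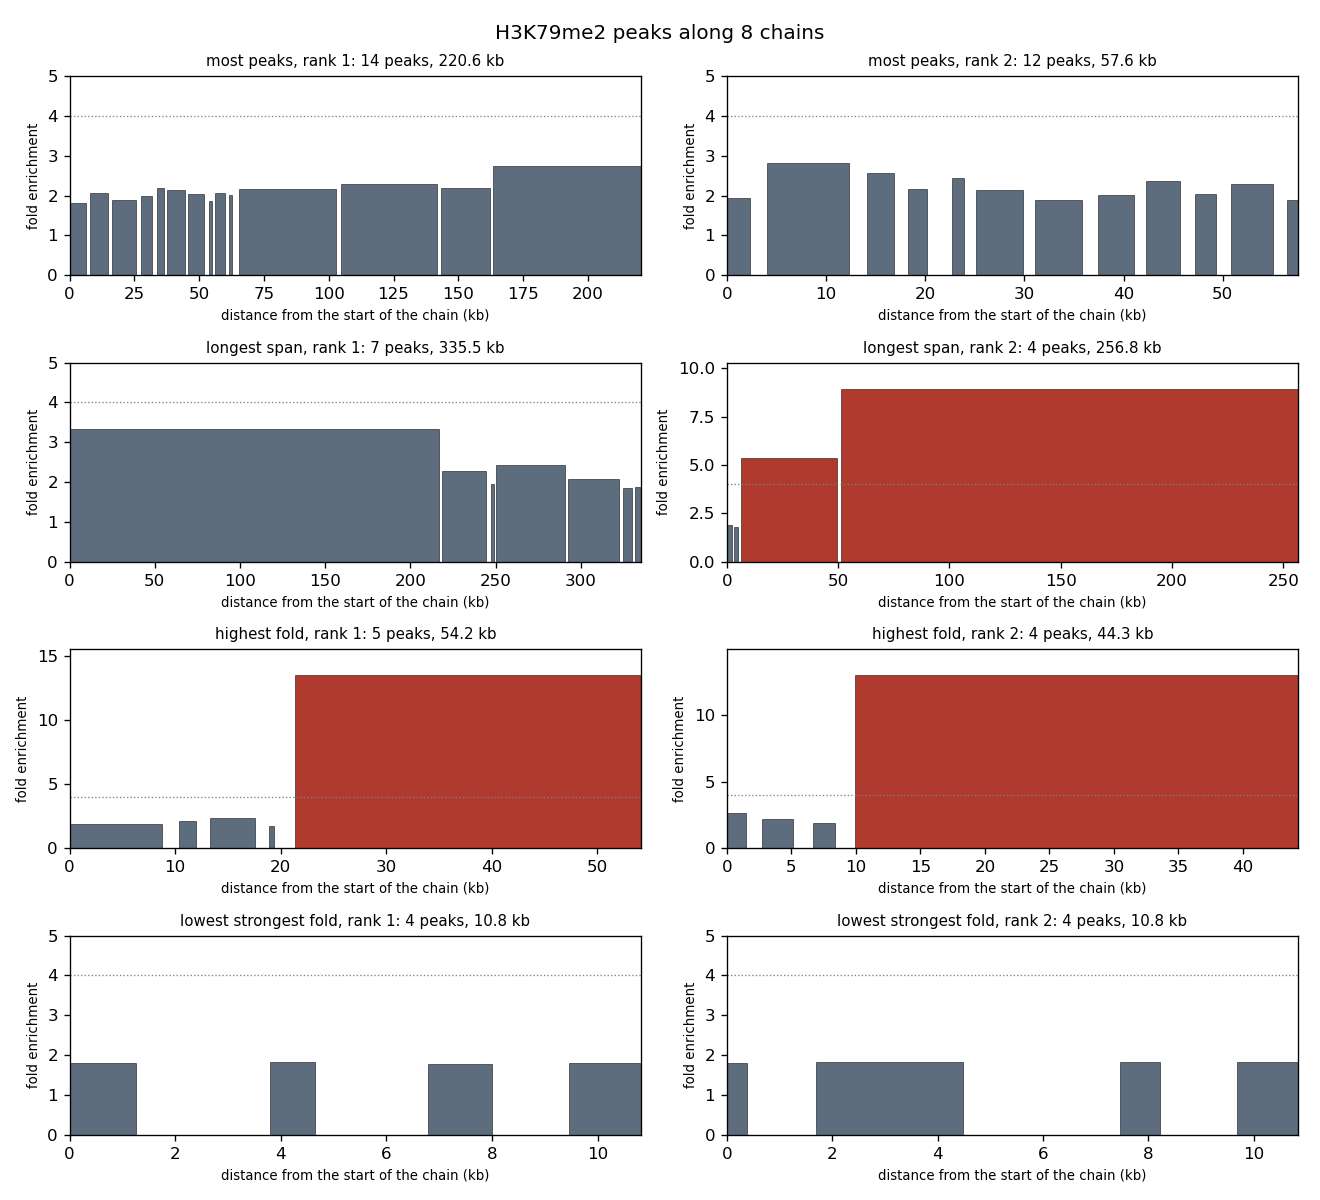
Peaks of 8 chains drawn to scale along the distance from the start of the chain in kb, with fold enrichment as bar height, for the first 2 chains by each of the 4 naming rules. Red bars have a fold of at least 4, which the dotted line marks, and grey bars less. The chains with the highest fold show 1 broad red bar of 13.5 or 13.01 beside short grey ones. Those with the lowest strongest fold show bars of nearly equal height. Both looks are favoured by the naming rules.

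The 5 chains with the highest fold all had a steep step between peaks, which a pick by the highest fold favours. On chromosome 7, from 125332907 to 125387080, 4 peaks with folds of 1.93, 2.12, 2.35 and 1.74 were followed, 1986 bp on, by a peak of 32.8 kb with a fold of 13.5 and a pileup of 170.8. On chromosome 4, from 129486647 to 129530929, 3 peaks with folds of 2.67, 2.23 and 1.89 stood before a peak of 34.3 kb with a fold of 13.01. On chromosome 14, from 105524289 to 105577283, 4 peaks of folds between 1.79 and 2.254 stood before a peak of 31.4 kb with a fold of 11.8. In all 3 the strong peak was the last of the chain and at least 31.4 kb wide.

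The other 2 differed from these in part. One was the chain with separate strong peaks on chromosome 16 described above. The other, on chromosome 8 from 124331176 to 124353500, spanned only 22.3 kb. Its strongest peak was again the last, but with a fold of 11.6 and a pileup of 152.04 over only 2.14 kb. Its widest peak, 8.36 kb, had a fold of 3.27. The strongest peak was the widest in 77.8% (70.8% to 83.9%) of chains with a strong peak, and this chain was among the rest.

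The 5 chains with the lowest strongest fold were short. They were also flat, which the pick largely fixes. It caps their highest fold, and no member peak of any chain had a fold below 1.697. They lay on chromosome 8 from 70664600 to 70675423, chromosome 11 from 61771280 to 61782123, chromosome 13 from 37066094 to 37075291, chromosome 12 from 79448097 to 79457959 and chromosome 5 from 132387301 to 132403560. Each had 4 peaks. Their folds ran from 1.699 to 1.897 and their pileups from 19 to 23.4. The one on chromosome 8 had folds of 1.81, 1.82, 1.78 and 1.79, the highest 1.02 times the lowest. Peaks covered between 41.5% and 68.2% of these chains.

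Chains stood closer to other marked regions than shorter joined regions and lone peaks did, which a rule that selects runs of small gaps favours. The nearest other region lay a median of 6.23 kb (5.69 to 6.9) from a chain, against 8.48 kb from joined regions of 2 or 3 peaks and 10.2 kb from lone peaks. From 1 chain to the next on the same chromosome the median distance was 3265 kb. In 37 of 386 such pairs the chains were at most 50 kb apart, and in 12 at most 5 kb apart. Between neighbouring peaks inside chains, Spearman's rho of the fold was 0.2 over 1550 pairs, a description across pairs that share chains and libraries.

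Autosomes differed in the share of their peaks that lay in chains. Chromosome 13 had the highest share, 163 of 1029 peaks or 15.8% (13.7% to 18.2%), in 33 chains. Chromosome 14 was next with 110 of 700 peaks or 15.7% (13.1% to 18.6%), and these intervals overlap. The intervals take each peak as independent, although peaks enter as whole chains, so they are too narrow. Chromosome 4 had the lowest share, 65 of 1062 peaks or 6.12% (4.76% to 7.73%), in 14 chains. The median over the 19 autosomes was 9.9% (SD between autosomes 2.62). Chromosome 2 had the most chains, 40, with 207 of its 1633 peaks.

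The share of chains with a strong peak, 41.2% over all autosomes, also varied between them. Autosomes with high and low shares are named here, the counts are small, and a difference was not tested. On chromosome 13, 8 of 33 chains had a strong peak, and on chromosome 4, 10 of 14. On chromosome 6 it was 4 of 20 and on chromosome 9, 14 of 22. The share of all peaks with a fold under 2 was 42.7% on chromosome 13, the highest of the autosomes, 38.7% on chromosome 14 and 31.7% on chromosome 4. Both this share and the share in chains were also high on chromosomes 12 (38.8% and 12.1%) and 18 (40.4% and 13.5%). Both were low on chromosomes 7 (30.2% and 8.82%), 10 (31.5% and 8.58%) and 11 (31.3% and 8.5%). On others the 2 shares did not go together. Chromosome 17 had 31.3% of its peaks under a fold of 2 and 11.8% in chains, and chromosome 15 had 32.7% and 12.3%. Chromosome 1 had 39.3% and 10.3%, chromosome 6 had 37.3% and 8.93%, and chromosome 8 had 33.6% and 12.9%. The part of the weak peaks in the number of chains was not tested.

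**Figure D5:**
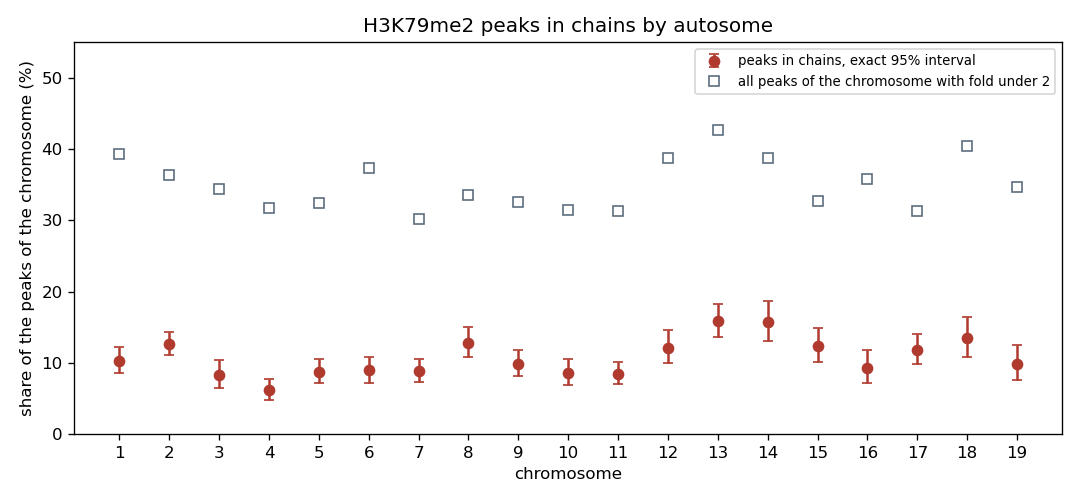
Share of the peaks of each autosome that lay in chains (filled circles, bars are exact 95% intervals) and share of all its peaks with a fold under 2 (open squares), in percent. The intervals take peaks as independent, although peaks enter as whole chains, so they are too narrow. Chromosomes 13 and 14 have the highest shares in chains, 15.8% and 15.7%, and chromosome 4 the lowest, 6.12%.

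Some of the 1 Mb windows with most chains are named here, after their values were seen. No expected number of chains per window was worked out, so gathering beyond that number was not tested. The 1 Mb window from 45 to 46 Mb on chromosome 13 held 5 chains with 23 peaks, between 45603298 and 46060378. Only 1 of those peaks was strong, with a fold of 4.66. The window from 110 to 111 Mb of the same chromosome held 4 chains with 20 peaks and no strong one, with a highest fold of 3.47. On chromosome 5, from 132387301 to 132496126, 3 chains with 16 peaks lay within 108.8 kb, with a highest fold of 2.06. On chromosome 11, the window from 106 to 107 Mb held 3 chains with 15 peaks, and 2 of those were strong, up to a fold of 7.06.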

How the data were processed

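The reads were processed on mm9 with MACS2, bedtools 2.25.0, SAMtools, GSNAP and CASAVA 1.8.2, per the submitters' processing notes, whose settings are not known here. Per the file header, the authors' deposited list gives each peak's position, width, pileup (a coverage signal), fold enrichment (a ratio to the control background) and −log10 q. Its −log10 p was not used. The number of reads in each library was not at hand, so depth is known only through the pileup.

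Peaks were joined at gaps of at most 3000 bp, and chains of at least 4 were kept. A fold of at least 4 was called strong. The text names 5 chains each by number of peaks (ties by span), span, highest fold and lowest strongest fold. Members, lists and rules were chosen with earlier results of these data known. Gene lists and marker lists were not run, since the gene table used here is GRCm38. Joining and intervals were tested on simulated data with planted chains. Computation was in Python 3.11.15 with pandas 2.3.3, scipy 1.17.1 and numpy 2.4.6, and plots in matplotlib 3.10.9.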

Additional observations from a re-analysis of the deposited data

How the results depend on the processing

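No paired analysis was possible because the list combines the libraries, and for the same reason no replicate could be left out. The results on genes under chains, gene starts and repeated sequence in gaps were not run, because the reference was of another build. The number of chains, 405 as reported, depended on the joining rule and the call limit: it was 189 at gaps of at most 2000 bp, 725 at 5000 bp, 178 for at least 5 peaks, 86 among peaks with a −log10 q of at least 2, and 418 with X and Y, of which 13 lay on X. Member peaks, 1955 as reported, numbered 850, 3808, 1047 and 385 under the first 4 of these. The median span of 39856 bp moved to 35678, 48746, 49137.5 and 72071 bp in the same order. The covered share of 84.2% moved to 86.1% at 2000 bp, 81.4% at 5000 bp and 91.6% at the −log10 q limit, and the median fold of 2.01 to 2.29 at that limit. The share of chains with a strong peak, 41.2%, was 49.8% at 5000 bp, 51.2% at the −log10 q limit and 24.9% with strong set at a fold of at least 6. Chosen after seeing the data were the 11 alternatives for the next 2 results. The share of chains with a strong peak that were strongest at an end, 71.9%, was 61.4% (45.5% to 75.6%) at the −log10 q limit. The fold next to the strongest peak, 2.06, was 2.65 at that limit, where weaker neighbours are left out by construction, and 1.98 with strong set at 6. The other 15 of 37 alternative values stayed within the reported interval or, for counts, within 1.5 times. Marking below a pileup of 19 was not detectable in this list.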
